A study of Mus musculus with 4 samples.

Results

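The panel holds 4 genes of cell adhesion that are described here. They are *ICAM-1* (mouse gene Icam1) and *VCAM-1* (Vcam1), which encode adhesion molecules of the immunoglobulin superfamily, and the cadherins *CDH1* (Cdh1, E-cadherin) and *CDH13* (Cdh13, T-cadherin). They were taken by name, as 4 of the 98 genes measured by RT-qPCR in whole lungs. Lungs came from female C57BL/6J mice aged 6 to 8 weeks at purchase. The mice were injected in the lung with Lewis lung carcinoma (LLC) cells, a line from a mouse lung tumor, or with vehicle, each mixed with Matrigel. Mouse recombinant S100A8 (10 µg), a calcium-binding protein of myeloid cells, or the salt solution HBSS was given intranasally on Days 3, 6 and 9, and lungs were collected on Day 10. The cancer-free groups were HBSS + vehicle and S100A8 + vehicle, and the cancer-bearing groups HBSS + LLC and S100A8 + LLC, with 4 to 5 mice in each of the 4 groups. The authors deposited 1 mean threshold cycle (Ct) per gene and group. Each cycle fewer means roughly 2 times the amount of template. No spread between mice, test or p-value can be computed from these values. Each difference below is a difference between averages whose error they do not give. A higher level in whole lung can reflect more cells of a type or more RNA per cell, which cannot be told apart.

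ICAM-1 is displayed by endothelium, epithelium and leukocytes, binds the leukocyte integrins LFA-1 and Mac-1, and supports firm adhesion and passage of leukocytes through vessel walls. VCAM-1 binds the integrin VLA-4 on lymphocytes, monocytes and eosinophils. Cytokines acting through NF-κB are known inducers of both. E-cadherin joins neighboring epithelial cells at adherens junctions, and its loss is a hallmark of epithelial-mesenchymal transition. T-cadherin is an unusual cadherin without a cytoplasmic tail, held in the membrane by a lipid anchor, and serves as a receptor for adiponectin on vascular cells.

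The upstream sequence of *ICAM-1*, the gene with the largest difference of the 4, is printed here. It is the window from 250 bases before to 50 bases after the annotated start of Icam1, chr9:21015690-21015989, plus strand, from RefSeq on GRCm38.p6. RefSeq promoter sequence was matched for this 1 of the 4 genes. Capitals mark 3 motifs searched on both strands, which are GGNNNTTCC (a κB-like motif), CAGGTG (an E-box bound by Snail and ZEB factors) and TATAAA.
ICAM-1: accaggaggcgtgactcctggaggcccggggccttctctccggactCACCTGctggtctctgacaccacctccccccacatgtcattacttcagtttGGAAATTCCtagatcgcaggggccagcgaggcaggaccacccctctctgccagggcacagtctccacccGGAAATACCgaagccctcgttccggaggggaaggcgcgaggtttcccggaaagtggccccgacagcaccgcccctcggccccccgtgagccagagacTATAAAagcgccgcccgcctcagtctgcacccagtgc
The κB-like motif began 153 bases before the annotated start, as GGAAATTCC, where it matched both strands, and again 84 bases before it, as GGTATTTCC on the minus strand. The E-box lay 204 bases before the start, on the minus strand, and none of these matches overlapped a match to another motif. TATAAA lay 13 bases after the annotated start. Of the 32851 windows of this length in the same RefSeq table, 18.5% held GGNNNTTCC, 20.2% CAGGTG and 13.6% TATAAA. These matches describe letters, and no binding was measured.

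*ICAM-1* was detected late in lungs given HBSS + vehicle and far earlier in the other 3 groups. Its mean Ct was 32.47 with HBSS + vehicle, against 21.03 with S100A8 + vehicle, 19.23 with HBSS + LLC and 21.39 with S100A8 + LLC. HBSS + vehicle therefore stood 11.08 cycles or more above each other group. It was the only value above 30 cycles among the 16 values of the 4 genes. The mean Ct of *CDH1* was likewise latest with HBSS + vehicle (22.38), ahead of which came S100A8 + LLC (19.75), S100A8 + vehicle (18.79) and HBSS + LLC (17.97). For *VCAM-1* the values were 21.64 with HBSS + vehicle and 23.66 with S100A8 + vehicle, and 21.10 and 22.98 in the cancer-bearing groups without and with S100A8. For *CDH13* they were 21.32, 22.49, 21.67 and 23.51, listed likewise. For these 2 genes HBSS + vehicle was not set apart from the other groups, and the whole range was 2.56 cycles for *VCAM-1* and 2.19 cycles for *CDH13*.

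**Figure D1:**
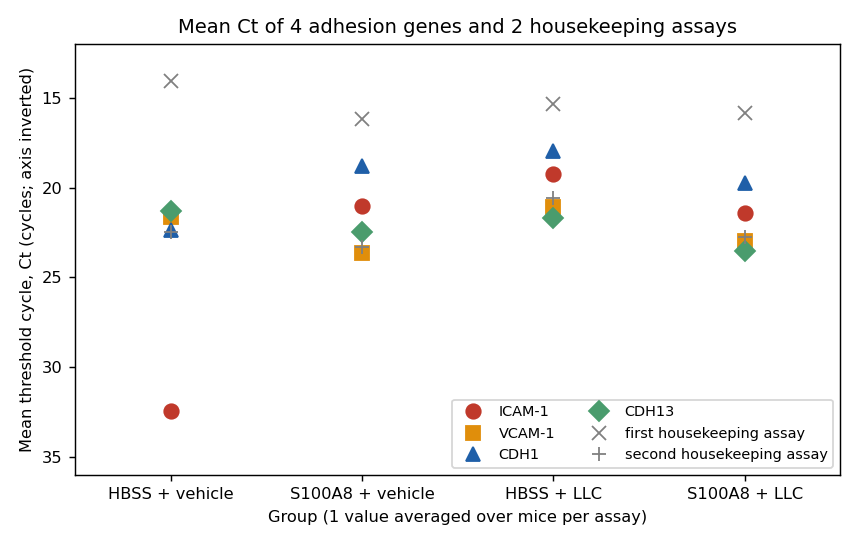
Mean Ct (cycles, axis inverted so that more template is higher) of *ICAM-1*, *VCAM-1*, *CDH1*, *CDH13* and the 2 housekeeping assays in each of the 4 groups; each point is 1 value averaged over mice. *ICAM-1* lies at 32.47 in HBSS + vehicle and between 19.23 and 21.39 in the other groups.

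Expression was normalized to the mean Ct of the 2 housekeeping assays, taken as β-actin and β2M, which the deposited values do not tell apart. These assays did not move together. From HBSS + vehicle to HBSS + LLC the first was 1.26 cycles later while the second differed by -1.94 cycles, which makes a fold change 9.19 times larger with the first alone than with the second alone. This ratio was 2.43 for S100A8 + vehicle and 2.79 for S100A8 + LLC against the same control. Between S100A8 + LLC and HBSS + LLC it was 3.29, between HBSS + LLC and S100A8 + vehicle 3.78, and between S100A8 + LLC and S100A8 + vehicle 1.15. The first assay alone moved the median log2 fold change of all panel genes by 0.64, 1.60 and 0.74 in the 3 comparisons with HBSS + vehicle, and the second moved it as far the other way. A fold change below is given with its range over 4 references, which are both assays, each assay alone and the median Ct of the 98 genes. A difference was called when it was more than 2-fold either way.

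In lungs without LLC cancers, S100A8 was accompanied by more *ICAM-1* and *CDH1* mRNA, with *VCAM-1* and *CDH13* within 2-fold of HBSS. More than 2-fold higher were 2 of the 4 genes, against 27.8% of the 97 panel genes with a value, and none was more than 2-fold lower, against 17.5% (45.4% either way). The panel shares were 49.5% higher and 11.3% lower with the first housekeeping assay alone, 16.5% and 30.9% with the second alone, and 19.6% and 25.8% with the panel median. *ICAM-1* was 7538-fold higher (4837 to 11747-fold over the references), the highest of the 97 genes, of which *SOD1*, in second place, has only a lower bound. This fold change rests on 1 late control Ct of *ICAM-1* (32.47, rank 87 from the earliest). The range covers the choice of reference only, not the error of that Ct. *CDH1* was 32.7-fold higher (21.0 to 50.9-fold) and ranked 7. *VCAM-1* was 0.669-fold, with 0.429-fold and 1.04-fold as extremes, so neither its direction nor its call was fixed. *CDH13* was 1.21-fold, between 0.774-fold and 1.88-fold.

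In lungs with LLC cancers and HBSS, the same 2 genes were more than 2-fold higher than in HBSS + vehicle, against 26.5% of the 98 panel genes. *ICAM-1* was 7643-fold higher (2521 to 23170-fold) and ranked 3. *CDH1* was 16.8-fold higher (5.54 to 50.9-fold) and ranked 10. None of the 4 was more than 2-fold lower, against 21.4% of the panel (48.0% either way). The panel shares became 62.2% higher and 4.08% lower under the first assay, and 14.3% and 63.3% under the second. *VCAM-1* was 1.15-fold, from 0.379-fold to 3.48-fold. *CDH13* was 0.620-fold, from 0.204-fold to 1.88-fold. For *VCAM-1* and *CDH13* the presence of LLC cancers thus gave no direction that held under every reference.

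With S100A8 and LLC together, *ICAM-1* was 4300-fold higher than in HBSS + vehicle (2574 to 7181-fold) and *CDH1* 12.3-fold higher (7.36 to 20.5-fold), and 22.4% of the panel was more than 2-fold higher. They ranked 3 and 8 of 98 genes. *CDH13* was 2.30-fold lower, while 18.4% of the panel was more than 2-fold lower (40.8% either way). The panel shares became 37.8% higher and 8.16% lower with the first assay alone, 16.3% and 48.0% with the second alone, and 17.3% and 41.8% with the panel median. It was lower under each of the 4 references, but the first housekeeping assay gave 1.38-fold and the second 3.84-fold. *VCAM-1* was 0.785-fold, from 0.470-fold to 1.31-fold. These 3 comparisons share HBSS + vehicle, so the control values of *ICAM-1* and *CDH1* enter each of their 3 fold changes. The ranges over the references do not cover error in those control values. The median log2 fold change of the 4 genes was 2.65 with S100A8, 2.135 with LLC and 1.635 with both, beside 0.34, -0.185 and -0.22 over the panel.

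**Figure D2:**
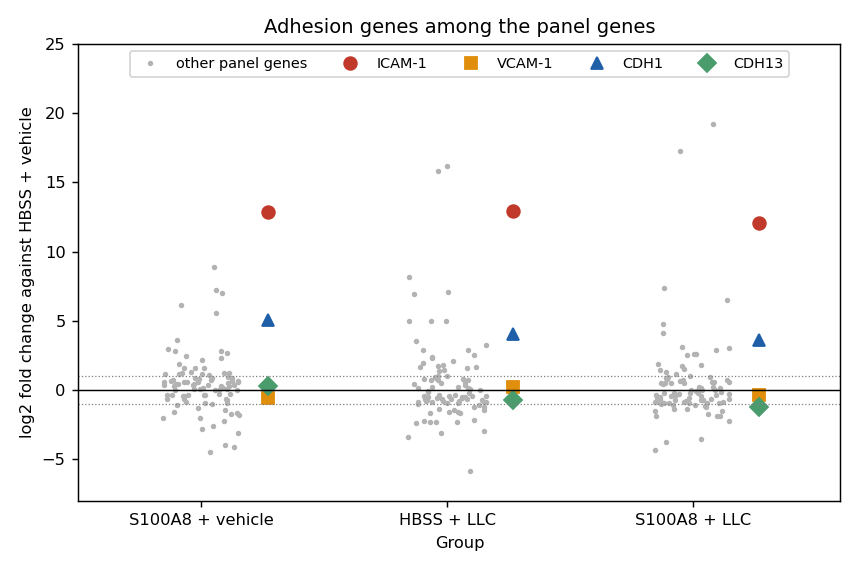
Log2 fold change against HBSS + vehicle, with both housekeeping assays as reference, in each of the 3 other groups; grey points are the other panel genes, colored symbols the 4 adhesion genes, and dotted lines mark 2-fold. *ICAM-1* lies at 12.88, 12.90 and 12.07 and *CDH1* at 5.03, 4.07 and 3.62, with *VCAM-1* and *CDH13* between -1.20 and 0.27.

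The order of levels within each gene, normalized to both housekeeping assays, shows where the groups part. *ICAM-1* was highest in HBSS + LLC and S100A8 + vehicle, which differed by 1.01-fold, followed by S100A8 + LLC, 1.75-fold below S100A8 + vehicle, and then by HBSS + vehicle, a further 4300-fold below. *CDH1* was highest in S100A8 + vehicle, 1.95-fold above HBSS + LLC, which was 1.37-fold above S100A8 + LLC. HBSS + vehicle was 12.3-fold below that. *VCAM-1* ran from HBSS + LLC through HBSS + vehicle and S100A8 + LLC to S100A8 + vehicle, with steps of 1.15-fold, 1.27-fold and 1.17-fold, and 1.72-fold between the highest and the lowest group. *CDH13* ran from S100A8 + vehicle through HBSS + vehicle and HBSS + LLC to S100A8 + LLC, with 2.77-fold between the ends. Whether neighbors in these orders differ beyond the spread between mice cannot be told from these values.

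For *ICAM-1*, the gap between HBSS + vehicle and the nearest other group was 12.07 cycles, while those 3 groups spanned 0.83 cycles. This was the largest such gap measured in the panel under each of the 4 references, but that of *SOD1*, at the 38-cycle cut off in HBSS + vehicle, is only a lower bound. For *CDH1* the gap was 3.62 cycles against a span of 1.41 cycles, and it ranked 7. A gap wider than the span of the other groups was found for 23 of the 98 genes (23.5%). Under each reference it was found for *ICAM-1* and *CDH1* and not for *CDH13*. For *VCAM-1* it appeared only with the second housekeeping assay alone, at 1.09 cycles against 0.31 cycles.

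Differences between 2 genes measured in the same group need no reference, because it cancels. The Ct of *CDH1* was 1.06 cycles above that of *CDH13* in HBSS + vehicle. It was 3.70 cycles below it with S100A8 alone, likewise 3.70 cycles with LLC alone, and 3.76 cycles with the combination. The 2 cadherin mRNAs thus kept nearly the same ratio in the 3 groups that received S100A8, LLC or both, and that ratio was 27.1 to 28.2 times that in HBSS + vehicle. Of the pairs among the 4 genes this was the steadiest. In the same order, the Ct of *ICAM-1* was 2.24, 1.26 and 1.64 cycles above that of *CDH1*, and that of *VCAM-1* 4.87, 3.13 and 3.23 cycles above it. How often such steady pairs occur in the panel was not examined. The Ct of *ICAM-1* was 10.83 cycles above that of *VCAM-1* in HBSS + vehicle, and 2.63, 1.87 and 1.59 cycles below it with S100A8, LLC or both. The ratio of *ICAM-1* to *VCAM-1* mRNA was accordingly 5480 to 11268 times that in HBSS + vehicle. The pair *VCAM-1* and *CDH13* differed less, with *VCAM-1* 0.32 and 1.17 cycles above *CDH13* in HBSS + vehicle and S100A8 + vehicle, and 0.57 and 0.53 cycles below it in HBSS + LLC and S100A8 + LLC. Relative to *CDH13*, *VCAM-1* was therefore 1.80-fold lower than HBSS + vehicle with S100A8 alone, and 1.85-fold and 1.80-fold higher in cancer-bearing lungs without and with S100A8. Against S100A8 + vehicle these cancer-bearing lungs had 3.34-fold and 3.25-fold more *VCAM-1* relative to *CDH13*.

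**Figure D3:**
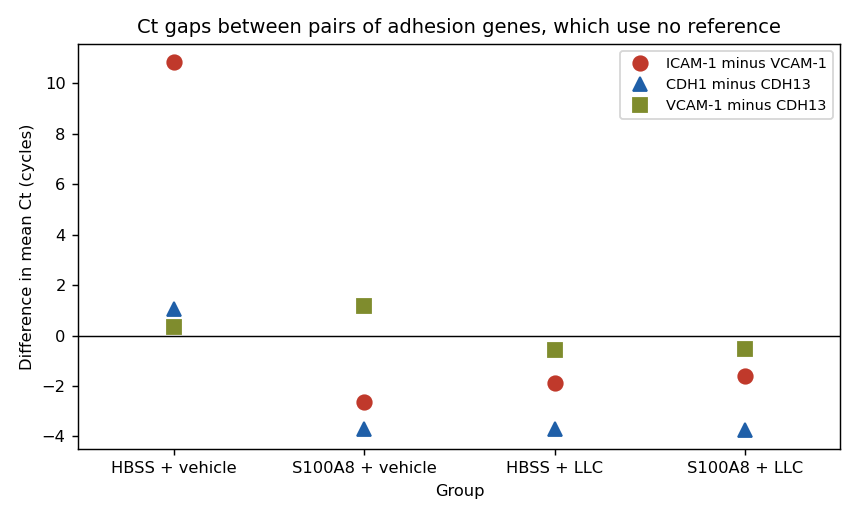
Difference in mean Ct (cycles) between *ICAM-1* and *VCAM-1*, *CDH1* and *CDH13*, and *VCAM-1* and *CDH13* in each group; each point is the difference of 2 averaged values. The first 2 pairs are above 0 in HBSS + vehicle (10.83 and 1.06) and below 0 in the other 3 groups.

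Among lungs with LLC cancers, S100A8 treatment was accompanied by slightly lower values of all 4 genes when both housekeeping assays were used. None was called, against 11.2% of the panel called higher and 15.3% called lower (26.5% either way). *ICAM-1* was 1.78-fold lower, *VCAM-1* 1.46-fold, *CDH13* 1.42-fold and *CDH1* 1.37-fold. Their median log2 fold change was -0.53, beside -0.055 over the panel. With the first housekeeping assay alone all 4 were more than 2-fold lower, by 3.23-fold, 2.66-fold, 2.58-fold and 2.48-fold, as were 44.9% of the panel, with 5.1% higher. With the second alone all 4 were above HBSS + LLC, between 1.02-fold and 1.33-fold, and the panel shares were 39.8% higher and 6.12% lower. With the panel median they were 8.16% higher and 32.7% lower. The direction for S100A8 in cancer-bearing lungs thus depended on the reference for each of the 4 genes.

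S100A8-treated lungs with and without LLC cancers are the pair least affected by the reference. *CDH13* was 2.77-fold lower with LLC (2.58 to 3.12-fold) and *CDH1* 2.66-fold lower (2.48 to 2.99-fold), and both calls held under each reference. With 2 of the 4 genes lower, the share in the panel was 29.6%, and 12.2% of the panel was more than 2-fold higher (41.8% either way). *ICAM-1* was 1.75-fold lower (1.64 to 1.97-fold) and *VCAM-1* 1.17-fold higher (1.04 to 1.26-fold), neither past 2-fold. Markers of epithelium differed in both directions in this comparison. Of 6 such markers, 4 were more than 2-fold lower, namely *CDH1* itself, *MUC1* (a cell-surface mucin) at 2.73-fold, and *RAGE* and *AGER*, which the panel lists as separate assays, at 2.17-fold and 3.29-fold. AGER encodes the receptor RAGE, abundant on type I alveolar cells. By name these 2 assays measure the same gene, which the list and its sum below therefore count with each assay. *KRT14*, a keratin of basal cells, was 6.06-fold higher, and *KRT5* was 1.84-fold higher. The summed level of these 6 markers, relative to 1000 for the housekeeping mean, was 17742 with S100A8 alone and 8925 in its HBSS control, and 6876 and 6454 in cancer-bearing lungs without and with S100A8. *RAGE* and *AGER* made up 71.0% to 83.0% of this sum. Against HBSS + vehicle the sum ranged over the references from 1.28-fold to 3.10-fold with S100A8 alone, from 0.254-fold to 2.34-fold with LLC alone and from 0.433-fold to 1.21-fold with the combination. None of the markers was at 38 cycles, the cut off, in any group. The part of these cells in the *CDH1* and *CDH13* values was not tested.

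Lungs with LLC cancers and HBSS compared with S100A8 alone gave no member past 2-fold, against 23.5% of the panel higher and 31.6% lower (55.1% either way). The panel shares became 35.7% higher and 5.1% lower with the first assay alone, 11.2% and 60.2% with the second alone, and 26.5% and 18.4% with the panel median. *ICAM-1* was 1.01-fold (0.521 to 1.97-fold over the references), *VCAM-1* 1.72-fold, and *CDH1* and *CDH13* each 0.514-fold (0.264 to 1.0-fold), past 2-fold lower with the second assay alone. The ratio between the 2 cadherins was the same in both groups. With the first assay alone *VCAM-1* was 3.34-fold, and with the second 0.883-fold.

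**Figure D4:**
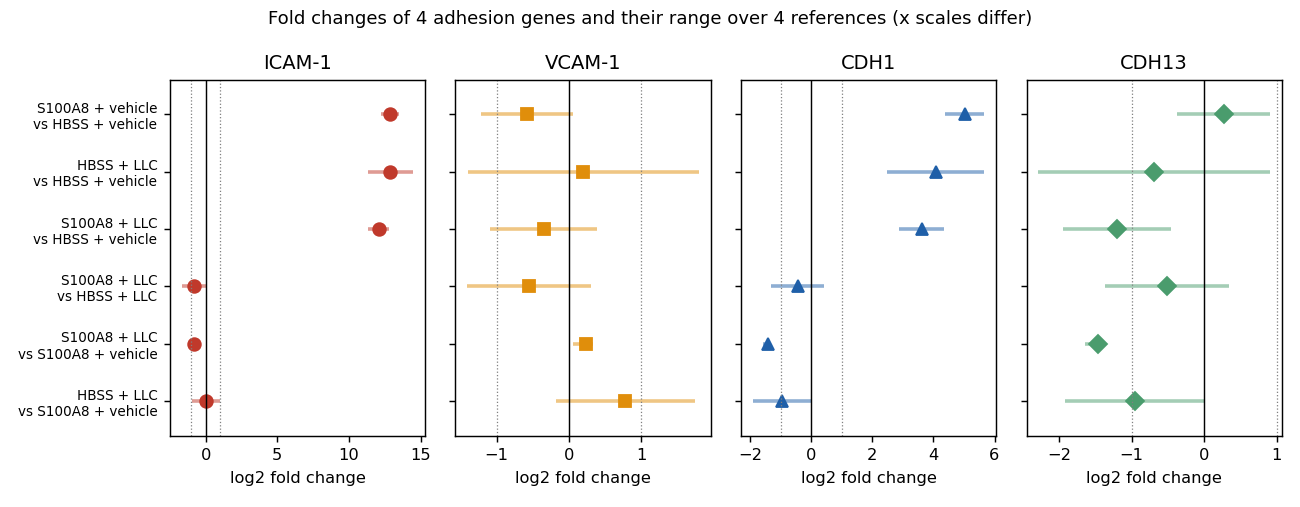
Log2 fold change of each of the 4 genes in 6 comparisons; symbols use both housekeeping assays, lines span the 4 references, dotted lines mark 2-fold, and the scale of the x axis differs between genes. The lines of *ICAM-1* and *CDH1* lie far from 0 against HBSS + vehicle, and those of all 4 genes cross 0 in S100A8 + LLC vs HBSS + LLC.

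The layout of the 4 groups also allows the joint effect to be set beside the single ones. For *ICAM-1*, the log2 fold changes of S100A8 alone and LLC alone sum to 25.78, whereas the combination gave 12.07. For *CDH1* the sum was 9.10 and the combination 3.62. For *VCAM-1* they were -0.38 and -0.35, and for *CDH13* -0.42 and -1.20. The 3 groups that had received S100A8, LLC or both spanned 1.78-fold for *ICAM-1* and 2.66-fold for *CDH1*. The difference between the sum and the combination was the largest of 97 genes for *ICAM-1* and ranked 9 for *CDH1*, 63 for *CDH13* and 96 for *VCAM-1*. All 4 groups enter this difference once, and it was not tested. Genes at 38 cycles in a group enter these ranks with that value.

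The panel genes whose 3 log2 fold changes against HBSS + vehicle were nearest to those of each member were found by root mean square difference. None lay near *ICAM-1*. The nearest were *SOD1*, *PRDX1* and *TXN*, enzymes and proteins of antioxidant defense, at 5.02, 5.14 and 5.27 log2 units, and the fold changes of *SOD1* are bounds because its control was at 38 cycles. *PRDX1* and *TXN* were also late in HBSS + vehicle, at 30.55 and 37.41 cycles, as was *ICAM-1* itself at 32.47. For *CDH1* the nearest genes were *ARG1* (arginase 1) at 0.91, *IL-18* at 1.03 and *IFN-γ* at 1.70. Each of these 3 had a mean Ct above 30 in HBSS + vehicle, unlike *CDH1*. For *VCAM-1* they were *SIRT1* at 0.36, *MMP-3* at 0.37 and *CXCL-9* at 0.40, and for *CDH13* they were *CXCL-2* at 0.17, *NF-κB* at 0.22 and *MUC1* at 0.28. Such likeness rests on 3 values that share a control and a reference.

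Gene lists are given with both housekeeping assays as reference, and their counts shift with it. Cytokines known to induce endothelial adhesion molecules differed from HBSS + vehicle in both directions. Of *TNF-α*, *IL-1β*, *IFN-γ*, *IL-4*, *IL-13* and the transcription factor *NF-κB*, 2 were more than 2-fold higher than HBSS + vehicle in each of the 3 other groups, and these were *IFN-γ* and *IL-4* each time. *IL-4* was at 38 cycles in HBSS + vehicle, so its fold change is a lower bound. *IFN-γ*, which can induce ICAM-1, was 5.06-fold higher with S100A8 alone, 31.8-fold with LLC alone and 7.31-fold with S100A8 and LLC. More than 2-fold lower were 1, 2 and 3 of the 6 in the same order. In the panel, 27.8%, 26.5% and 22.4% of genes were more than 2-fold higher and 17.5%, 21.4% and 18.4% lower, so all of these counts except the 3 lower are within 1 gene of the panel share. *IL-13*, an inducer of VCAM-1, was among the lower genes each time, at 4.59-fold, 58.9-fold and 20.5-fold lower. *TNF-α*, a classical inducer of both molecules, was 1.23-fold, 0.363-fold and 0.387-fold. *NF-κB* was 1.01-fold, 0.629-fold and 0.529-fold, and was within 2-fold each time.

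Of 8 genes known for loss or shedding of E-cadherin, 2 exceeded HBSS + vehicle by more than 2-fold in each of the 3 other groups, beside the higher *CDH1*. A count of 2 in 8 is near the panel shares of 27.8%, 26.5% and 22.4%. *TGF-β1*, a driver of epithelial-mesenchymal transition, was among them each time, at 7.73-fold, 3.20-fold and 3.58-fold. *MMP-9*, a matrix metalloproteinase, was 7.06-fold in S100A8 + vehicle and 2.28-fold in S100A8 + LLC. *FGF-2*, a fibroblast growth factor, was 3.14-fold in HBSS + LLC. *S100A4*, a calcium-binding protein of mesenchymal cells, was 4.92-fold lower in HBSS + LLC, the only 1 of the 8 lower in any of these comparisons. Of 3 further adhesion and surface genes chosen from the panel, which holds other surface proteins too, *CADM1* and *MUC1* were within 2-fold of HBSS + vehicle in every group. *CADM1* is an immunoglobulin superfamily adhesion molecule. *CAV1*, the main protein of caveolae in endothelium and type I alveolar cells, was 2.77-fold higher in HBSS + LLC.

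Markers of other cells were read in the same lungs. Lung markers *RAGE*, *AGER* and *CAV1* had mean Ct values between 14.95 and 18.56, far below the cut off. Of the other 5 epithelial markers, *MUC1*, *RAGE* and *AGER* were 1.49-fold, 1.87-fold and 1.83-fold of HBSS + vehicle with S100A8 alone, below the 2-fold threshold. With LLC alone they were 0.693-fold, 0.763-fold and 0.599-fold, and with the combination 0.547-fold, 0.859-fold and 0.555-fold. *KRT14* was 1.01-fold with S100A8 alone, 3.20-fold lower with LLC alone and 6.11-fold higher with the combination. *KRT5* was 8.57-fold, 8.63-fold and 4.66-fold lower in the 3 groups. Of 6 leukocyte markers, 2 were more than 2-fold higher in S100A8 + vehicle, near the panel share of 27.8%, and none was in HBSS + LLC or S100A8 + LLC. More than 2-fold lower were 2 with S100A8 alone, 3 with LLC alone and 2 with the combination, where the panel shares were 17.5%, 21.4% and 18.4%. The 2 higher were *S100A8* and *S100A9* themselves, genes of neutrophils and monocytes, at 2.30-fold and 2.08-fold. *LCK*, a kinase of T cells, was 3.10-fold, 5.17-fold and 3.63-fold lower with S100A8, LLC or both. The other markers called lower were *CXCR4*, a chemokine receptor, with S100A8 alone and with LLC alone, and *IRF-4*, a transcription factor of lymphocytes, with LLC alone and with the combination. The summed level of the 6, relative to 1000 for the housekeeping mean, was 2615 with S100A8 alone, 2219 in the HBSS control, 1351 in HBSS + LLC but 1556 where LLC and S100A8 were combined. Over the references, this sum lay on either side of HBSS + vehicle in each of the 3 groups. Of 4 endothelial and type I alveolar markers, none was called in S100A8 + vehicle, *CAV1* was higher in HBSS + LLC and *CDH13* was lower in S100A8 + LLC. These 4 include *CDH13* itself and both *RAGE* and *AGER*, by name the same gene. The part of cell composition in the values of *ICAM-1* and *CDH1* was not tested.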

How the data were processed

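Whole-lung RNA was assayed by RT-qPCR for 98 genes and 2 housekeeping genes. The authors reverse-transcribed 1.5 µg of RNA, set a cut off of 38 cycles and deposited 1 mean Ct per assay and group, not normalized. They also deposited fold changes, a ratio against HBSS + vehicle. This ratio was used only to find which numbered assay is which gene and which column is which group, by matching it to the gene names of the study, and no value of it is reported. All 98 genes matched exactly 1 assay, and 2 assays were left as housekeeping genes. The same assay was nearest for 98 of 98 genes when differences in mean Ct were set against the fold changes printed by the study. The offset per group in that comparison came from the assays already matched, so it is not a fully separate identification.

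The mean Ct of both housekeeping assays was subtracted from each Ct, and fold changes were taken as powers of 2 of the difference between groups. They were computed for all genes, and none where both groups were at 38 cycles. The members and gene lists were chosen with earlier results of these data known. Named genes were the 4 members, the 3 nearest genes to each and those gene lists. Each group is 1 value averaged over 4 to 5 mice, without values per mouse. No test or SD can therefore be computed here, and depth cannot be stated for Ct values. The normalization and the 2-fold call were checked on simulated Ct values with known fold changes, for HBSS + LLC against HBSS + vehicle only. Base Ct values in that simulation were limited to 30 cycles, so a control as late as that of *ICAM-1* was not covered. The other steps were not checked by simulation. Alternatives were other references, thresholds of 1.5 and 3, a cap at 35 cycles and a limit of 30 cycles. Python 3.11.15 and numpy 2.4.6 were used.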

Additional observations from a re-analysis of the deposited data

Results flagged for a closer look

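With both housekeeping assays as reference, S100A8 went with opposite signs in lungs without and with LLC cancers for 3 of the 4 genes, as for 58 of 97 panel genes. The effect on the log2 scale in LLC-bearing minus that in cancer-free lungs was -13.71 for *ICAM-1* (12.88 without and -0.83 with LLC), -5.48 for *CDH1* (5.03 and -0.45) and -0.78 for *CDH13* (0.27 and -0.51). With 1 averaged value per group the difference was not tested. With this reference the effect passed 2-fold in cancer-free lungs only, for *ICAM-1* and *CDH1*. In LLC-bearing lungs it also did with the first assay alone (-1.69 and -1.31), and for *ICAM-1* with the panel median (-1.315). With the second housekeeping assay alone both effects were above 0 for *ICAM-1* (12.24 and 0.03) and *CDH1* (4.39 and 0.41), while the signs of *CDH13* were turned (-0.37 and 0.35). With the panel median *CDH13* had the same sign in both (-0.165 and -0.995). Opposite signs were found for 4 genes with the first assay, and for 2 with the second or the panel median. The matching panel counts under these references are not given, so these 2 counts cannot be set beside the panel. The search for outlying samples does not apply, since no group has more than 1 value.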

How the results depend on the processing

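The 4 genes gave 24 fold changes. Call and direction were kept by 19 with the panel median, 14 with the first housekeeping assay alone and 11 with the second alone. The 14 include *CDH1* and *CDH13* between HBSS + LLC and S100A8 + vehicle, which had no direction there (a log2 fold change of 0). A cap at 35 cycles cannot alter these genes, whose highest Ct is 32.47. No value called with both housekeeping assays changed sign, but *VCAM-1* in HBSS + LLC against HBSS + vehicle was called higher with the first assay (log2 1.80) and lower with the second (-1.40). Against HBSS + vehicle, the number of the 4 genes called lower for S100A8 + vehicle became 1 with the second assay or the panel median. For HBSS + LLC this number became 2 with the second assay and 1 at a threshold of 1.5, and for S100A8 + LLC 0 with the first assay or at a threshold of 3, and 2 with the second assay. The number called higher for HBSS + LLC became 3 with the first assay. A mean Ct of at most 30 in both groups left 1 gene (*CDH1*) higher in each of these comparisons. Between S100A8 + LLC and HBSS + LLC, the number lower became 4 with the first assay, 2 with the panel median and 1 at a threshold of 1.5. Between S100A8 + LLC and S100A8 + vehicle it became 0 at a threshold of 3 and 3 at a threshold of 1.5. Between HBSS + LLC and S100A8 + vehicle, 1 was higher with the first assay, the panel median or a threshold of 1.5, and 2 were lower with the second assay or a threshold of 1.5. Panel shares are not given at thresholds of 1.5 and 3 or at the limit of 30 cycles. Counts at those settings therefore cannot be set beside the panel. The difference between the S100A8 effects with and without LLC became -1.47, 1.53 and -0.02 for *VCAM-1* with the first assay, the second and the panel median. For *CDH13* it became -2.28 and 0.72 with the first and the second. It stayed between -15.21 and -12.21 for *ICAM-1* and between -6.98 and -3.98 for *CDH1*. These shifts follow from the reference itself, which moves every gene of a group alike. No paired analysis was possible because each group has 1 averaged value, and for the same reason no replicate could be left out.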
